A study of Mus musculus with 14 samples.

Results

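The genes of the ubiquitin-conjugating enzymes, or E2 enzymes, and of the ubiquitin-specific proteases, or USPs, were followed through late spermatogenesis in mice with and without Setd2. Members were the autosomal rows whose gene symbol begins with Ube2 and a letter or with Usp and a digit, which gave 84 of the 20626 genes in the RNA-seq tables, 34 of them E2 and 50 USP genes. The 9 rows of the same kind on the X and Y chromosomes (Ube2a, Ube2dnl1, Ube2dnl2, Usp9x, Usp11, Usp26, Usp27x, Usp51 and Usp9y) were left out by this rule. Symbols and biochemistry do not match throughout: Usp6nl, which fits the rule, encodes a GTPase-activating protein for Rab proteins, and Ube2cbp encodes a protein that binds the E2 enzyme Ube2c.

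Ubiquitin is activated by an E1 enzyme, passed to the active-site cysteine of an E2 enzyme and placed on a substrate with the help of an E3 ligase, which picks the substrate, while the E2 enzyme often sets the kind of chain that is built. USPs are cysteine proteases that take ubiquitin off again. In the testis this machinery is known for its work on histones during meiosis and histone removal, on the synaptonemal complex, and on the building of the acrosome.

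Polyadenylated RNA was measured together with H3K36me3, which Setd2 places on the histones of transcribed genes. Germ cells came from adult C57BL/6J testes and were sorted on Hoechst and propidium iodide staining. The 4 groups were round spermatids (RS) labelled Setd2KO, RS labelled WT, pachytene and diplotene spermatocytes (PD) labelled Setd2KO, and PD labelled WT. The labels used here do not name the Cre driver or the deleted part of Setd2, and both genotypes carry the same strain label. Each group had 2 RNA-seq libraries and 1 list of H3K36me3 peaks, so the 8 RNA libraries allow tests and the 4 peak lists do not.

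The depth of the RNA libraries, recovered from the FPKM steps of short genes, was 50.8 to 84.9 megareads, and replicates correlated across genes at r of 0.992 to 0.995. FPKM is fragments per kilobase of transcript per megaread. Nothing in the labels ties the 2 libraries of a group to different animals. A p-value therefore reflects the spread of libraries, which may be technical. Setd2 itself had 12.1 and 8.67 FPKM in RS Setd2KO and 5.24 and 5.58 FPKM in RS WT, and 21.0 and 21.4 FPKM in PD Setd2KO and 21.2 and 19.1 FPKM in PD WT. It was higher in RS Setd2KO by a log2 change of 0.81 ± 0.15 (SE, limma adjusted p = 0.00162), and the change in PD did not pass the test (0.07, adjusted p = 0.736 by limma). The whole-gene FPKM therefore does not show the deletion, and single exons were not tested. Some markers of other testis cells moved with genotype. The 8 spermatogonial markers summed to 12.8 and 17.9 FPKM in PD Setd2KO and to 6.83 and 7.37 FPKM in PD WT. Nanos3 went the other way (0.531 and 0.395 FPKM against 0.670 and 0.689 FPKM). The 5 markers of peritubular myoid cells summed to 10.7 and 9.68 FPKM in RS Setd2KO and to 2.18 and 3.29 FPKM in RS WT. The 8 Sertoli cell markers summed to 9.18 and 7.82 FPKM in RS Setd2KO and 3.29 and 4.69 FPKM in RS WT. Most of the Sertoli sum was Clu, with 7.55 and 6.38 FPKM in RS Setd2KO and 2.71 and 3.70 FPKM in RS WT. The rest were under 1 FPKM, where Amh and Rhox8 overlapped between genotypes. None of these markers was at 0 in a group, and their part in the results was not tested. The 517 genes specific to round spermatids in WT stood at 13.1% and 7.67% of their RS Setd2KO level in the PD Setd2KO libraries. In the PD WT libraries they stood at 1.92% and 2.77% of their RS WT level. They were picked as at least 20-fold lower in these PD WT libraries than in RS WT. The WT percentages are therefore low by that choice, and the gap between genotypes is not a test. The 12 round spermatid markers, Prm1, Prm2 and Tnp1 among them, summed to 1913 and 2100 FPKM in RS Setd2KO and to 4502 and 4401 FPKM in RS WT. Most of this gap lay in Tnp1, Prm1 and Prm2. Tnp1 had 302 and 283 FPKM in RS Setd2KO and 1067 and 948 FPKM in RS WT. Spaca1 and Catsper3 overlapped between genotypes, and Spata16 was higher in RS Setd2KO (167 and 161 FPKM against 112 and 115 FPKM). The others were lower by smaller amounts. In PD the same 12 markers summed to 436 and 349 FPKM in Setd2KO and to 450 and 521 FPKM in WT. Acrbp, Tnp1, Prm1 and Prm2 were lower in PD Setd2KO, Spata16 overlapped, and the remaining markers were higher. Acrbp had 76.6 and 72.1 FPKM in PD Setd2KO and 152 and 192 FPKM in PD WT. Hils1 had 32.6 and 17.6 FPKM against 6.36 and 8.35 FPKM. In bulk RNA fewer cells of a type and less RNA per cell cannot be told apart.

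Most of these genes were expressed in both cell types. At least 1 FPKM was reached by 63 of 84 members in RS Setd2KO and 63 in RS WT, and by 70 in PD Setd2KO and 68 in PD WT. The median level of the E2 members was 8.49 FPKM in RS Setd2KO, 9.20 FPKM in RS WT, 12.7 FPKM in PD Setd2KO and 12.8 FPKM in PD WT. For the USP members the medians were 4.93 FPKM in RS Setd2KO, 4.14 FPKM in RS WT, 6.41 FPKM in PD Setd2KO and 5.13 FPKM in PD WT. A filter of at least 1 FPKM on average in at least 1 group left 70 members for testing, 31 E2 and 39 USP. The other 14 reached at most 0.808 FPKM in any library. They were Ube2d1, Ube2l6, Ube2ql1, Usp13, Usp18, Usp22, Usp29, Usp35, Usp43 and the 5 rows of the Usp17l family. Usp22, the histone H2B protease of the SAGA complex, was thus near the bottom of the family, with 0.303 and 0.283 FPKM in RS Setd2KO, 0.135 and 0.204 FPKM in RS WT, 0.414 and 0.619 FPKM in PD Setd2KO and 0.282 and 0.322 FPKM in PD WT.

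The member with the highest level in all 4 groups was Ube2s, which extends ubiquitin chains for the anaphase promoting complex. It had 334 and 330 FPKM in RS Setd2KO, 268 and 222 FPKM in RS WT, 369 and 374 FPKM in PD Setd2KO and 259 and 358 FPKM in PD WT. Its 2 PD WT libraries lay farther apart than those of any other group, and none of the 5 comparisons called it. Usp1, which takes ubiquitin off FANCD2 and PCNA, had 130 and 129 FPKM in RS Setd2KO, 106 and 98.6 FPKM in RS WT, 128 and 123 FPKM in PD Setd2KO and 93.2 and 130 FPKM in PD WT, and was not called either. Ube2d2b, a gene of 1.62 kb close in sequence to other Ube2d genes, had 186 and 196 FPKM in RS Setd2KO, 124 and 139 FPKM in RS WT, 117 and 123 FPKM in PD Setd2KO and 102 and 159 FPKM in PD WT. Reads could be shared among such copies, so its values are uncertain. Ube2m, which charges NEDD8, lay between 75.4 and 106 FPKM and Usp47 between 61.7 and 97.3 FPKM over the 8 libraries.

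**Figure D1:**
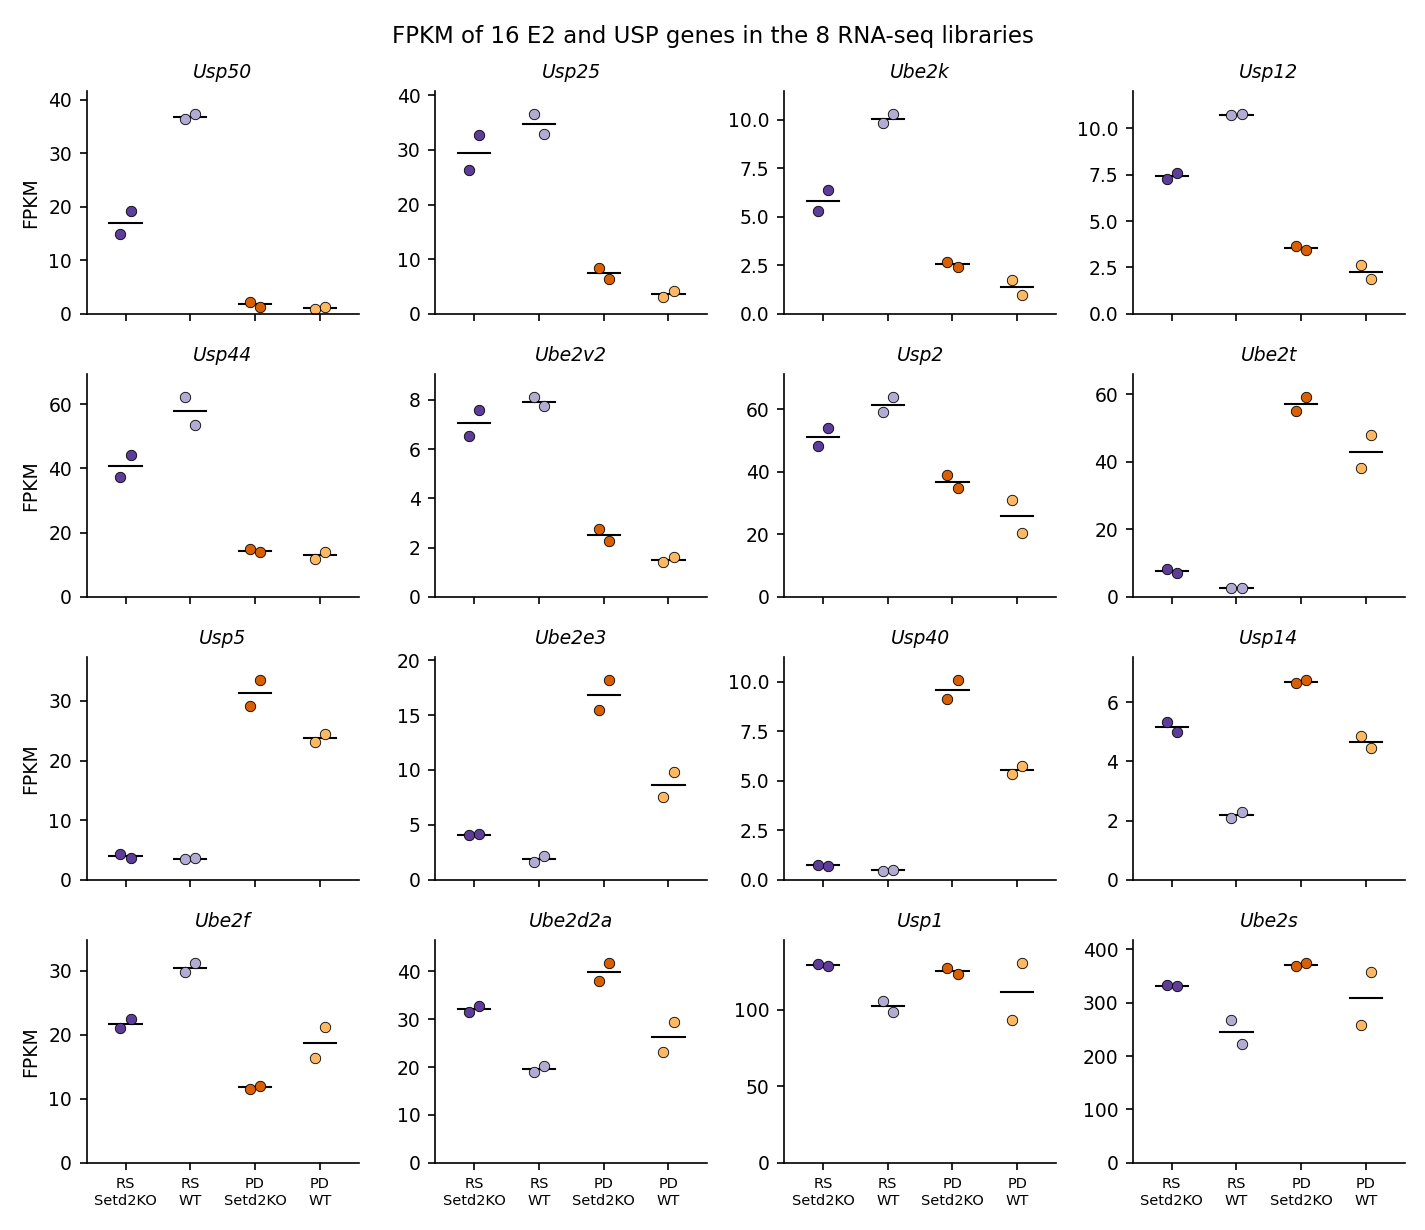
FPKM of 16 members in each of the 8 RNA-seq libraries (points) with the mean of each group (bars), RS left of PD and Setd2KO left of WT, on an axis that starts at 0 in each panel. Usp50 had 36.3 and 37.2 FPKM in RS WT and at most 19.1 FPKM in every other library, while Ube2t had at least 38.1 FPKM in all PD libraries and at most 8.31 FPKM in RS.

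Between spermatocytes and spermatids the family split. In WT, 19 of 70 tested members were higher in RS than in PD and 31 were lower by limma at an adjusted p under 0.05, where 36% of all tested genes were higher and 46.7% were lower. In Setd2KO 17 were higher and 32 lower, against 34.2% and 48.5% of all genes. The median log2 change of the members was -0.15 in WT and -0.28 in Setd2KO, beside -0.21 and -0.27 over all tested genes, so members were spread much like other genes. The comparisons in the 2 genotypes use different libraries: 13 members were higher in RS in both, 28 lower in both, Usp38 was higher in WT and lower in Setd2KO, and Usp53 was lower in WT and higher in Setd2KO. Not all of these 4 calls are stable: without the first RS WT library adjusted p by limma was 0.0626 for Usp38 in WT. The call of Usp53 ended in 7 settings in Setd2KO (adjusted p by limma 0.0504 to 0.170) and in 6 settings in WT, where its log2 change was -0.16 without the second PD WT library.

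Usp50, on the minus strand of chromosome 2 at 126586786 to 126609196 (mm9, whole gene), had the largest rise. It had 36.3 and 37.2 FPKM in RS WT, against 0.872 and 1.21 FPKM in PD WT. In Setd2KO it had 14.9 and 19.1 FPKM in RS, against 2.26 and 1.28 FPKM in PD. The RS and PD libraries lay far apart in both genotypes, with a log2 change of 4.22 ± 0.18 (SE) in WT, or 4.43 relative to the median of all genes, and of 2.71 ± 0.18 in Setd2KO, or 2.98 relative to it (limma adjusted p = 3.4e-09 and 8.8e-08). Usp50 is 1 of the 517 genes that set the spermatid share given above, so no value with the RS profile subtracted is given for it. Usp25 (chromosome 16, 77014314 to 77117025, plus strand, mm9) came next, with 36.5 and 33.0 FPKM in RS WT and 3.02 and 4.12 FPKM in PD WT. In Setd2KO it had 26.3 and 32.7 FPKM in RS and 8.41 and 6.35 FPKM in PD. Its log2 changes were 2.98 ± 0.17 in WT and 1.87 ± 0.17 in Setd2KO, or 3.19 and 2.13 relative to the median.

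The remaining members with large rises came from several roles. Ube2k, an E2 enzyme that builds K48-linked chains, had 9.83 and 10.3 FPKM in RS WT and 1.74 and 0.966 FPKM in PD WT, a log2 change of 2.25 ± 0.16. Usp44, which removes ubiquitin from histone H2B and restrains the anaphase promoting complex, had 62.1 and 53.5 FPKM in RS WT and 11.7 and 14 FPKM in PD WT, a log2 change of 2.08 ± 0.15. Usp12, a partner of the WD-repeat protein Wdr48, had 10.7 and 10.8 FPKM in RS WT and 2.63 and 1.87 FPKM in PD WT. All 3 kept their RS libraries above their PD libraries in Setd2KO too, with log2 changes of 0.94 ± 0.16 for Ube2k, 1.44 ± 0.15 for Usp44 and 0.89 ± 0.13 for Usp12. The K63 chain enzyme Ube2n and its inactive partner Ube2v2 were both higher in RS (log2 change in WT 1.17 ± 0.16 and 1.84 ± 0.12), whereas the other partner, Ube2v1, was lower (-1.11 ± 0.13). Ube2c, which starts chains for the anaphase promoting complex, had 11 and 11.7 FPKM in RS Setd2KO and 3.49 and 3.48 FPKM in PD Setd2KO, and 14.3 and 14.1 FPKM in RS WT and 4.49 and 5.40 FPKM in PD WT. Usp7, which acts on Mdm2 and p53, rose by 1.28 ± 0.14 in WT and by 0.79 ± 0.14 in Setd2KO, and Usp16, a histone H2A protease, rose by 0.96 ± 0.13 in WT and 0.85 ± 0.13 in Setd2KO. Usp15, a paralog of Usp4, rose by 1.41 ± 0.16 in WT and by 0.89 ± 0.16 in Setd2KO, while Usp4 itself was called in neither (0.11 ± 0.14 in WT and -0.07 ± 0.14 in Setd2KO).

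Ube2t, the E2 enzyme of the Fanconi anaemia pathway that puts ubiquitin on FANCD2, fell most. It lies on the plus strand of chromosome 1 at 136859142 to 136870756 (mm9). It had 2.45 FPKM in each of the RS WT libraries, against 38.1 and 47.8 FPKM in PD WT. In Setd2KO it had 8.31 and 6.93 FPKM in RS, against 55.1 and 59.0 FPKM in PD. No RS library came near a PD library, and the log2 changes were -3.66 ± 0.15 in WT and -2.76 ± 0.15 in Setd2KO, or -3.45 and -2.49 relative to the median (limma adjusted p = 2.7e-09 and 2.5e-08). Usp5, which takes apart free ubiquitin chains, had 3.41 and 3.68 FPKM in RS WT and 23.2 and 24.4 FPKM in PD WT, a log2 change of -2.45 ± 0.13. Usp40 had 0.455 and 0.495 FPKM in RS WT and 5.34 and 5.74 FPKM in PD WT, a log2 change of -2.15 ± 0.10. Of 7 tested broad-acting E2 genes (the Ube2d and Ube2e classes and Ube2w), 4 were lower in RS WT and 0 were higher, beside 46.7% and 36% of all tested genes. They were Ube2e3 (-1.74 ± 0.15), Ube2e1 (-1.37 ± 0.14), Ube2e2 (-0.48 ± 0.16) and Ube2d2a (-0.40 ± 0.15, or -0.24 without the second PD WT library), and the calls of Ube2e2 and Ube2d2a each ended in 3 settings. Of the members grouped under endosomes, Golgi, mitochondria and the endoplasmic reticulum, 5 of 7 were lower, against the same 46.7% of all genes. The 5 include Usp6nl, which is not a protease by its function given above, Usp30 of the mitochondrial outer membrane (-1.54 ± 0.14) and Usp33 (-1.63 ± 0.10). Usp10 (-1.77 in WT), Usp24 (-1.39) and Usp21, a histone H2A protease (-1.29), were lower as well. Of the other members always reported, Ube2b, the Rad6 enzyme required for male fertility in mice, was not called in WT (-0.20 ± 0.14). Usp3, a histone H2A protease, was lower (-0.78 ± 0.10), and Usp42 was higher (0.55 ± 0.16), but 3 settings ended its call, and without the second RS WT library its log2 change was 0.32 at an adjusted p of 0.114 by limma.

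**Figure D2:**
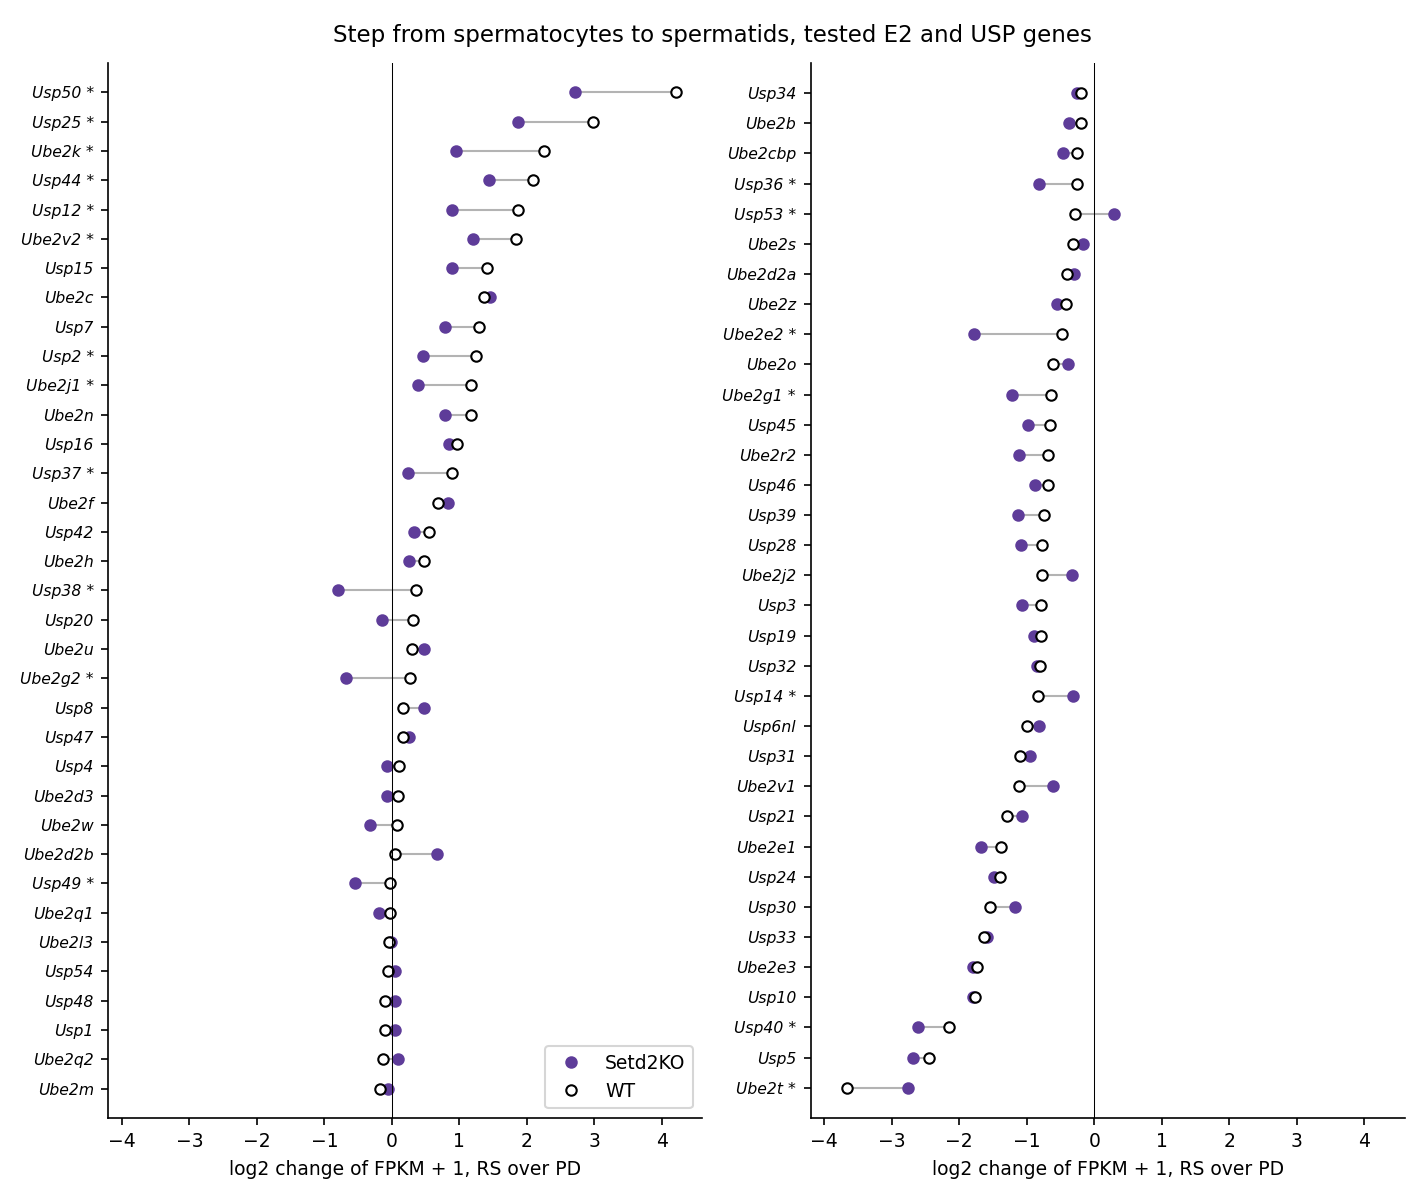
Change between RS and PD of tested members on the log2(FPKM + 1) scale, RS over PD, in Setd2KO (filled) and WT (open), ordered by the WT change. Asterisks mark the 19 members whose change differed between genotypes by limma. Usp50, Usp25, Ube2k, Usp44, Usp12 and Ube2v2 at the top have the Setd2KO point left of the WT point.

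Promoters are printed for Usp50, Usp25 and Ube2k, which rose most in RS WT, for Usp2, which was higher in RS WT too and is needed for male fertility, and for Ube2t, which fell most, to set their sequences beside each other. They come from RefSeq on GRCm38.p6 and run from 250 bases before to 50 bases after the annotated start. The windows lie at chr2:126783411-126783710 (minus strand) for Usp50, chr16:77013819-77014118 (plus strand) for Usp25, chr5:65536995-65537294 (plus strand) for Ube2k, chr9:44084670-44084969 (plus strand) for Usp2 and chr1:134962315-134962614 (plus strand) for Ube2t. Capitals mark matches on either strand to TGACG, the CRE core bound by the spermatid factor CREM, to GGGCGG, the GC box, to CAGTTG, a core of Myb sites, and to CCAAT, the CCAAT box.
Usp50: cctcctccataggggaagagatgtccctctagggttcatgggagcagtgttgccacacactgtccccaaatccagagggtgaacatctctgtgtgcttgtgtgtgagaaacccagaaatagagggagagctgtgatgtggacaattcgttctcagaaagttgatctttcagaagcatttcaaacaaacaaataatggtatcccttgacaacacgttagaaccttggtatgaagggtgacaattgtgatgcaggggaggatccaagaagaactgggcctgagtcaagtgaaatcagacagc
Usp25: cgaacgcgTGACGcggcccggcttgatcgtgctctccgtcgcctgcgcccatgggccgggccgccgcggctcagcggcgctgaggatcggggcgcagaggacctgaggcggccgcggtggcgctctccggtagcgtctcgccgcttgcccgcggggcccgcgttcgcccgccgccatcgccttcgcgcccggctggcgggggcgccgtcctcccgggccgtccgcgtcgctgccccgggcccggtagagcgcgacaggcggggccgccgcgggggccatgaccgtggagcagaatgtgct
Ube2k: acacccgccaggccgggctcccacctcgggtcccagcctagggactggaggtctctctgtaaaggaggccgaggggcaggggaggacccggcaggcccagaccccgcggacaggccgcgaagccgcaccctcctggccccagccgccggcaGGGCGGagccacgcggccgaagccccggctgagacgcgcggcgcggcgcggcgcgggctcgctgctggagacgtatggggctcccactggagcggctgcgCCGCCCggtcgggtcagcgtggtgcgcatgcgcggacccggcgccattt
Usp2: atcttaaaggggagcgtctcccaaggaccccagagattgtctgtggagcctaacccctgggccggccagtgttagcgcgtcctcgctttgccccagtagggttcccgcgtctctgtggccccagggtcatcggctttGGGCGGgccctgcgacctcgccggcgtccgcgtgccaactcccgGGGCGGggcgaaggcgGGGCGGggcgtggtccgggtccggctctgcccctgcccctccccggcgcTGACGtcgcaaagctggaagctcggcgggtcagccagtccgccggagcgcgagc
Ube2t: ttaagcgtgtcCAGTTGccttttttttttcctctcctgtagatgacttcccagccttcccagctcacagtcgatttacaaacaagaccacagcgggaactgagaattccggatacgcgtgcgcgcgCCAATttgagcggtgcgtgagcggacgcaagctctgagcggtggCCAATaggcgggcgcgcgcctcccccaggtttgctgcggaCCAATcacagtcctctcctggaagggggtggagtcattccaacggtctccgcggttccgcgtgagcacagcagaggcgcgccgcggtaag
The Usp50 window holds no match to these motifs, Usp25 holds 1 TGACG, Ube2k holds 2 GC boxes, Usp2 holds 1 TGACG and 3 GC boxes, and Ube2t holds 3 CCAAT boxes and 1 CAGTTG. Of the 84 members, 65 matched the promoter table, with 77 promoters. TGACG was present in 10 of 18 promoters of members higher in RS WT (55.6%) and in 5 of 26 promoters of members lower there (19.2%), beside 20.8% of all 32851 promoters. The full site TGACGTCA was present in 1 of the 18 and 0 of the 26, beside 1.79% of all promoters. CAGTTG was present in 11.1% and 7.69%, beside 13.7% of all promoters. The GC box was present in 70.1% of member promoters and 35.7% of all promoters, and CCAAT in 24.7% of member promoters and 37.4% of all promoters. These are counts of letters in the windows and not of bound sites.

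In spermatocytes Setd2KO raised more members than it lowered. By limma 25 of 70 were higher in PD Setd2KO than in PD WT and 2 were lower, where 29.8% of all tested genes were higher and 6.3% lower. The median of the members, 0.21 on the log2 scale, was close to the 0.19 of all tested genes. The split depends on scaling: 14 members were higher and 7 lower after upper-quartile scaling and 11 higher and 7 lower after quantile normalization, which brought the median of all genes to 0.00. Of the 11452 tested genes, 2573 were higher and 1307 lower after upper-quartile scaling, and 1506 and 1787 after quantile normalization. Leaving out the first PD Setd2KO library left 14 members higher and 0 lower, leaving out the second left 12 and 1, and without the first or the second PD WT library 18 and 4 or 31 and 1 were called. The 517 genes picked as low in PD WT stood at a larger share of their RS level in PD Setd2KO. The 12 round spermatid markers summed to less there, as given above. After the RS profile was subtracted at the share of the 517 genes, 24 members were higher and 2 lower. By role, 5 of 7 broad-acting E2 genes, 4 of 14 USPs of histones and DNA repair, 2 of 6 E2 genes of K48 chains and the endoplasmic reticulum and both USPs of the proteasome and free chains were higher, with 0 lower in each of these groups.

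The Ube2e class led the rises. Ube2e2 (chromosome 14, 19406091 to 19726141, minus strand, mm9) had 5.89 and 8.21 FPKM in PD Setd2KO, against 3.54 and 2.88 FPKM in PD WT. The groups did not overlap, and the log2 change was 0.92 ± 0.16, or 0.73 relative to the median (limma adjusted p = 0.0016). Ube2e3 had 15.5 and 18.2 FPKM in PD Setd2KO, against 7.57 and 9.77 FPKM in PD WT, a log2 change of 0.89 ± 0.15, or 0.69 relative to the median (adjusted p = 0.0014 by limma). Ube2e1, whose gene overlaps Nkiras1 on the other strand by 1272 bases, had 7.70 and 8.84 FPKM in PD Setd2KO against 4.03 and 5.22 FPKM in PD WT (0.73 ± 0.14, or 0.53 relative to it). These 3 calls held in all 17 other settings, as did those of Usp25 and Usp40 and no other. Usp40 had 9.15 and 10.1 FPKM in PD Setd2KO and 5.34 and 5.74 FPKM in PD WT (0.70 ± 0.10, or 0.51 relative to the median). Usp25 had 8.41 and 6.35 FPKM in PD Setd2KO and 3.02 and 4.12 FPKM in PD WT (0.87 ± 0.17, or 0.68 relative to the median). Usp25 has a far higher level in RS, and with the RS profile subtracted its log2 change was 0.61 at an adjusted p of 0.015 by limma.

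Further rises were smaller and less stable. Usp39, a splicing factor without the catalytic residues of a protease, rose by 0.62 ± 0.14, but adjusted p by limma was 0.0511 without the second PD Setd2KO library. Ube2d2a, of the broad-acting class, rose by 0.59 ± 0.15, and adjusted p by limma was 0.0900 without the second PD Setd2KO library. Usp2, which male mice need for normal fertility, had 38.8 and 34.8 FPKM in PD Setd2KO and 30.8 and 20.5 FPKM in PD WT, with a log2 change of 0.53 ± 0.18 that was 0.25 without the second PD WT library and 0.81 without the first, and its call ended in 12 settings. Ube2k rose by 0.61 ± 0.16, or by 0.37 at an adjusted p of 0.063 without the second PD WT library. The call of Ube2t in PD (0.41 ± 0.15, or 0.25 without the first PD WT library) likewise ended in 12 settings. Usp1, Usp8, Usp7, Usp16, Usp42, Usp44, Ube2b, Ube2j1, Ube2n and Ube2s, with log2 changes of 0.12 to 0.45, did not pass the test. Against this trend, Ube2f, the second NEDD8 enzyme, had 11.5 and 12.1 FPKM in PD Setd2KO and 16.3 and 21.2 FPKM in PD WT, a log2 change of -0.62 ± 0.14, or -0.81 relative to the median (adjusted p = 0.0077 by limma, and 0.0560 without the first PD Setd2KO library). Ube2c was the other lower member, at -0.40 ± 0.12, or -0.60 relative to the median. Its value was -0.68 with the RS profile subtracted, and adjusted p by limma reached 0.117 when 1 of 3 PD libraries was left out.

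In round spermatids the family moved both ways. By limma 15 of 70 members were higher in RS Setd2KO than in RS WT and 10 were lower, where 20.9% of all tested genes were higher and 21.8% lower. Of 31 tested E2 members, 9 were higher (29.0%) and 3 lower (9.68%). Of 39 tested USP members, 6 were higher (15.4%) and 7 lower (17.9%). The higher count was 8 without either RS Setd2KO library, 6 without the first RS WT library and 10 without the second, while the lower count stayed between 7 and 10. After upper-quartile scaling 23 were higher and 14 lower, beside 3030 higher and 2528 lower of all 11452 tested genes. The 24 genes specific to PD in WT stood at 5.35% and 4.68% of their PD level in RS Setd2KO and at 3.66% and 4.08% in RS WT. They were picked as at least 20-fold lower in these RS WT libraries, so the WT percentages are low by that choice. The 12 spermatocyte markers summed to 439 and 408 FPKM in RS Setd2KO and to 295 and 291 FPKM in RS WT. Most of that sum was Syce1 (193 and 189 FPKM against 137 and 137 FPKM) and Ccna1 (116 and 101 FPKM against 64.1 and 67.7 FPKM). Ccna1 was higher in RS than in PD in both genotypes. Sycp3 had 46.1 and 37.1 FPKM in RS Setd2KO against 19.0 and 17.6 FPKM in RS WT. Hormad1 had 26.6 and 20.1 FPKM against 9.48 and 8.15 FPKM, and Sycp2 and Mlh3 were higher too. Spo11, Hormad2 and Meiob were lower in RS Setd2KO, and Sycp1, Msh4 and Dmc1 overlapped. With the PD profile subtracted from the RS libraries, 14 members were higher and 12 lower.

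Ube2t rose most. It had 8.31 and 6.93 FPKM in RS Setd2KO, against 2.45 FPKM in each RS WT library, with no overlap and a log2 change of 1.32 ± 0.15 (limma adjusted p = 5.2e-05). The PD level of Ube2t is high, and with the PD profile subtracted the change was 1.72. Usp14, the protease bound to the proteasome, had 5.35 and 5.01 FPKM in RS Setd2KO and 2.09 and 2.27 FPKM in RS WT, a log2 change of 0.96 ± 0.11 (adjusted p = 6.3e-05 by limma). Usp14 overlaps Thoc1 on the other strand by 1870 bases, and Thoc1 had 17.0 FPKM in RS Setd2KO and 15.0 FPKM in RS WT. Ube2e3 had 4.07 and 4.14 FPKM in RS Setd2KO, against 1.63 and 2.15 FPKM in RS WT (0.83 ± 0.15), and Ube2d2a had 31.6 and 32.7 FPKM in RS Setd2KO, against 18.9 and 20.3 FPKM in RS WT (0.69 ± 0.15). In the class of broad-acting E2 enzymes, 4 of 7 tested members were higher and 0 lower, beside 20.9% and 21.8% of all tested genes, the remaining ones being Ube2d2b and Ube2e1 (0.42 ± 0.14, or 0.27 without the second RS Setd2KO library). Usp53 had 4.75 and 4.61 FPKM in RS Setd2KO and 2.79 and 2.89 FPKM in RS WT (0.56 ± 0.12). The calls of Ube2t, Usp14, Ube2e3, Ube2d2a and Usp53 held in all 17 other settings. Ube2v1 (0.53 ± 0.13), Ube2j2 (0.47 ± 0.15), Usp8 of the endosome (0.48 ± 0.15), Ube2d2b (0.54 ± 0.20) and Ube2q2 (0.43 ± 0.16) were higher too, but each lost its call without the first RS WT library, at an adjusted p by limma of 0.0502 for Ube2v1.

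Usp50 fell most in RS. It had 14.9 and 19.1 FPKM in RS Setd2KO, against 36.3 and 37.2 FPKM in RS WT, a log2 change of -1.08 ± 0.18 (limma adjusted p = 7.7e-04). Ube2g2, an E2 enzyme of endoplasmic reticulum quality control, had 4.23 and 4.56 FPKM in RS Setd2KO and 8.29 and 8.07 FPKM in RS WT (-0.77 ± 0.12). Ube2k had 5.28 and 6.37 FPKM in RS Setd2KO and 9.83 and 10.3 FPKM in RS WT (-0.70 ± 0.16), and Usp20 had 16 and 17.9 FPKM in RS Setd2KO and 26.1 and 27.1 FPKM in RS WT (-0.62 ± 0.13). Usp38 had 2.31 and 2.43 FPKM in RS Setd2KO and 4.45 and 4.18 FPKM in RS WT (-0.66 ± 0.11). The DNA repair protease Usp45 (-0.58 ± 0.11) and the histone H2B protease Usp49 (-0.55 ± 0.11) were also lower, with levels under 5 FPKM. None of the RS Setd2KO libraries overlapped the RS WT libraries for these 7 genes, and their calls held in every setting. Usp44 (-0.50 ± 0.15), Usp12 (-0.48 ± 0.13) and Ube2f (-0.47 ± 0.14) lost theirs when 1 RS library was left out, at adjusted p by limma up to 0.177, 0.0739 and 0.127. Among the 14 tested USPs of histones and DNA repair, 4 were lower and 0 higher, beside 21.8% and 20.9% of all tested genes. The sum of the RS markers, which follows Tnp1, Prm1 and Prm2 most, was lower in the same libraries, as given above. Its part in these changes was not tested.

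Effects in the 2 cell types were compared directly as the Setd2KO effect in RS minus that in PD. The difference was lower than 0 for 16 of 70 members and higher for 3 by limma, where 27.3% of all genes had a lower and 7.76% a higher difference. Its median was -0.17 over members and -0.16 over all tested genes. After upper-quartile scaling 13 were lower and 8 higher, and after quantile normalization 11 and 11. Of all 11452 tested genes, 2618 were lower and 1855 higher after upper-quartile scaling, and 2074 and 2327 after quantile normalization. Leaving out either PD Setd2KO library, the first RS Setd2KO library or the first RS WT library left 9 or 10 lower, and without the first PD WT library 14 were lower and 9 higher. Of the 19 members higher in RS than in PD in WT, 10 had a lower difference and 0 a higher one, which restates that their rise was smaller in Setd2KO, since both comparisons use the same libraries.

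Usp50 had the largest difference, -1.50 ± 0.25, or -1.35 relative to the median (limma adjusted p = 0.0015). Ube2k (-1.31 ± 0.22), Ube2e2 (-1.30 ± 0.22), Usp38 (-1.15 ± 0.15), Usp25 (-1.11 ± 0.24), Usp12 (-0.97 ± 0.18) and Ube2g2 (-0.95 ± 0.17) followed on the lower side. All 7 kept their calls in every setting, where for Usp50 the one with the RS profile subtracted does not count, as did Ube2g1 at a smaller difference (-0.58 ± 0.13). Ube2k, Usp12 and Usp38 were called higher in PD Setd2KO and lower in RS Setd2KO. In PD the call ended in 4 settings for Ube2k, in 3 for Usp12 and after quantile normalization for Usp38 (adjusted p = 0.062 by limma), and in RS that of Usp12 ended in 3. For Usp38, which had 4.78 and 4.92 FPKM in PD Setd2KO and 2.996 and 3.31 FPKM in PD WT, the effect was 0.50 ± 0.11 in PD and -0.66 ± 0.11 in RS. In the group of E2 enzymes for K48 chains and the endoplasmic reticulum, 4 of 6 members had a lower difference, beside 27.3% of all tested genes. The 3 members grouped as high in mouse testis and tested, Usp2, Usp25 and Usp50, all had a lower one, of which Usp2 (-0.79 ± 0.26) lost its call in 9 settings and was -0.51 without the second PD WT library. Ube2j1, an E2 enzyme anchored in the endoplasmic reticulum membrane, had a difference of -0.79 ± 0.25 and lost its call in 6 settings. Usp44 had -0.65 ± 0.21, which was -0.44 at an adjusted p of 0.124 by limma with the RS profile subtracted. On the higher side stood Ube2t (0.91 ± 0.21, kept in every setting), Usp53 (0.58 ± 0.17) and Usp14 (0.51 ± 0.15). The calls of Usp53 and Usp14 ended without the first PD Setd2KO library, among others, at adjusted p by limma of 0.0682 and 0.0778.

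**Figure D3:**
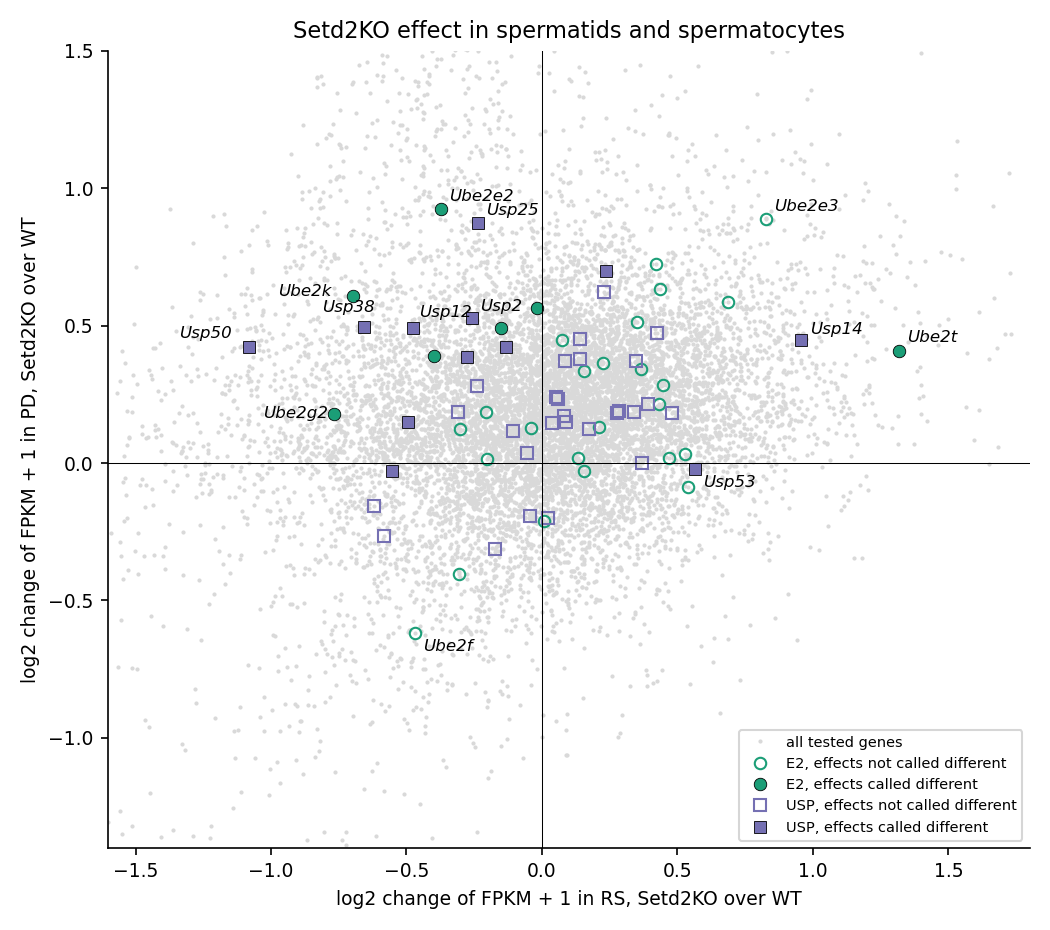
Setd2KO over WT on the log2(FPKM + 1) scale in RS (horizontal) and PD (vertical) for the 70 tested members, with all tested genes in grey within the axis limits. Filled symbols mark the 19 members whose effects differed between cell types by limma. Usp50 lies farthest left at -1.08 and Ube2t farthest right at 1.32, while Ube2e2 lies highest at 0.92.

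Other genes of the pathway were grouped by function and read in the same fit. Of 9 tested E1 genes, 6 were lower and 2 higher in RS than in PD in WT, beside 46.7% and 36% of all tested genes, with a median of -1.17 against -0.21 over all genes. Nae1 and Uba3, the subunits of the E1 enzyme for NEDD8, fell together in RS WT (log2 change -3.18 ± 0.17 and -2.69 ± 0.11), whereas Uba1, the main E1 enzyme for ubiquitin, which lies on the X chromosome, had 26.8 and 22.4 FPKM in RS WT and 0.778 and 0.726 FPKM in PD WT. Of the 16 tested genes of ubiquitin and ubiquitin-like proteins, 4 were higher and 8 lower in RS WT. In RS, 5 of them were lower in Setd2KO and 4 higher, beside 21.8% and 20.9% of all tested genes. Gabarap, an Atg8-like protein of autophagy, had 48.5 and 49.2 FPKM in PD Setd2KO and 84.1 and 107 FPKM in PD WT (-0.94 ± 0.16).

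Deubiquitinases of other families were read beside the USPs. Of all tested genes, 29.8% were higher and 6.3% lower in PD Setd2KO, 20.9% higher and 21.8% lower in RS Setd2KO, and 36% higher and 46.7% lower in RS WT than in PD WT, and 27.3% had a lower and 7.76% a higher difference between effects. The limma test called 13 of 34 of them higher and 0 lower in PD Setd2KO, and 7 higher and 5 lower in RS Setd2KO. Uchl5, like Usp14 a protease of the proteasome, had 14.8 and 14.1 FPKM in RS Setd2KO and 5.02 and 9.07 FPKM in RS WT (0.99 ± 0.23), beside the Usp14 change of 0.96 in the same libraries. Of 33 tested E3 genes, 12 were higher and 0 lower in PD Setd2KO, 6 were higher and 7 lower in RS Setd2KO, and 13 had a lower and 1 a higher difference between effects. Rnf151 and Klhl10, known from spermatids, had the largest differences (-2.21 and -1.92). Of the 8 tested USP partners, 5 were lower and 1 higher in RS WT. Eny2 and Atxn7, of the SAGA module that holds Usp22, were among the lower ones (-1.24 and -1.41). Of 5 tested E2 genes with other names, Cdc34 and Atg3 were lower in RS Setd2KO (-0.60 ± 0.15 and -0.41 ± 0.13).

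H3K36me3 covered most members in both WT lists. A peak overlapped at least 1 base of 66 of 84 members in RS WT and of 72 in PD WT, beside 45% and 46.4% of all autosomal genes. Members are expressed more often than autosomal genes as a whole, so level matters: among genes of at least 5 FPKM the counts were 41 of 45 members in RS WT (79.4% of all autosomal genes at that level) and 46 of 46 in PD WT (95.4%). In the Setd2KO lists a peak overlapped 6 of 84 members in RS (5.44% of autosomal genes) and 0 in PD (2.02%). The 6 were Usp36, Usp54, Usp13, Usp53, Ube2q2 and Ube2cbp, each with 1 peak of 141 to 195 bases and an authors' score of 51.4 to 76.1. With the score raised to at least 100, or with at least 50% of the gene required, 0 remained. Over members lay 205 peaks in RS WT and 352 in PD WT. Spike-in chromatin was added, and scaling of the lists to it is nowhere stated in the labels. With 1 list per group these are descriptions with no test.

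Where cover was present it usually took up most of the gene. Among members with a peak the median covered share was 89.3% in RS WT and 91.7% in PD WT. Along the gene body, over members of at least 10 kb and at least 5 FPKM, the mean cover was 58.0% in the first of 10 equal bins and 66.5% in the last in RS WT (n = 41 genes), and 68.3% and 88.5% in PD WT (n = 42 genes). The longest cover was 159329 bases in PD WT, over Usp34, and 119719 bases in RS WT, over Usp24, which was covered over 95.7% of its length in RS WT and 92.9% in PD WT. Usp47, Ube2u and Usp25 also had long cover in RS WT, over 99.5%, 97.3% and 86.8% of each gene. Usp50 combined a high level with little cover: 11.2% of it was covered in RS WT, where it had 36.8 FPKM on average, and 13.6% in PD WT, where it had 1.04 FPKM. Ube2v2 likewise had 3.18% cover in RS WT with levels of 8.10 and 7.76 FPKM. Ube2t was covered over 100% of its length in both lists although its level differed by a log2 change of -3.66.

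**Figure D4:**
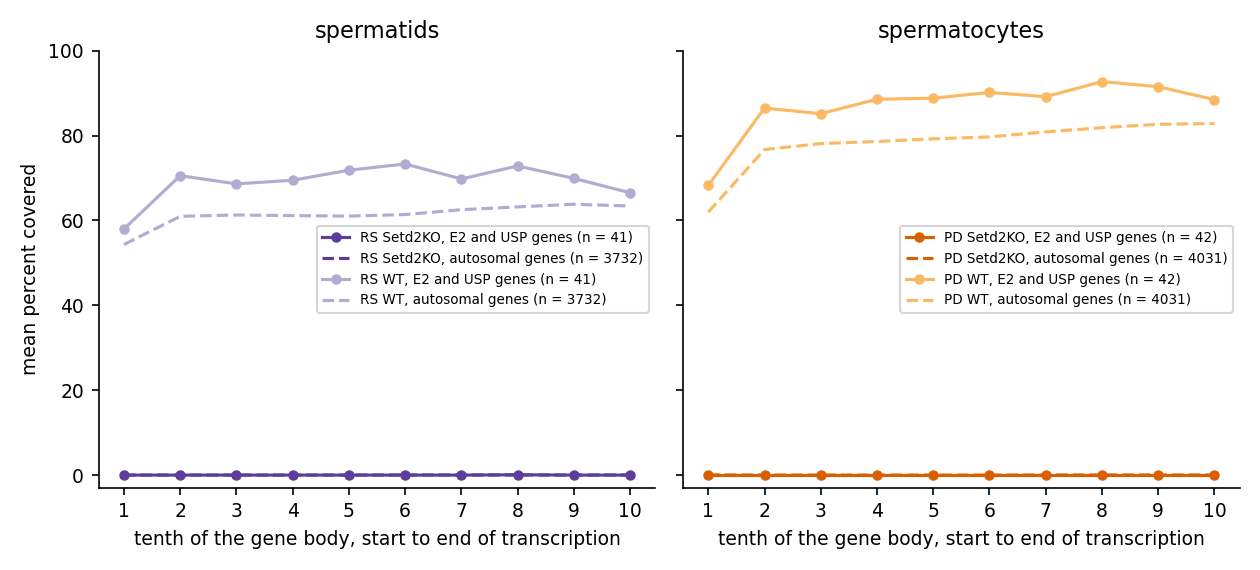
Mean percent of each of 10 equal bins of the gene body covered by H3K36me3 peaks, from the start to the end of transcription, in RS (left) and PD (right), for members (solid) and autosomal genes (dashed) of at least 10 kb and at least 5 FPKM. The Setd2KO lines lie at 0% or next to it and the WT member lines between 58.0% and 92.7%.

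Cover in RS WT was lower than in PD WT by at least 20 percentage points for 14 of the 72 members with a peak in either list (19.4%, beside 11.3% of 9570 autosomal genes) and higher by as much for 3, Usp25, Usp44 and Ube2n (4.17% beside 6.81%). Usp54 (chromosome 14, 21368134 to 21437576, minus strand, mm9) was covered over 0% in RS WT and 99.3% in PD WT, with 4.44 and 4.91 FPKM in RS WT and 5.11 and 4.65 FPKM in PD WT. Usp48, Ube2f, Usp34 and Usp37 also had 0% cover in RS WT, and in PD WT it was 98.9% for Usp48, 95.2% for Ube2f, 86.7% for Usp34 and 27.9% for Usp37. These 4 were the members of at least 5 FPKM with no RS WT peak. Ube2f was higher in RS WT than in PD WT, with 29.8 and 31.2 FPKM in RS WT against 16.3 and 21.2 FPKM in PD WT. Usp7 was covered over 18.9% in RS WT and 94.2% in PD WT, while its mean level was 73.9 FPKM in RS WT and 29.8 FPKM in PD WT. Usp15 had 33.7% cover and a mean level of 30.6 FPKM in RS WT, against 94.3% and 11 FPKM in PD WT. Of the 14 members with lower cover in RS WT, limma called the RNA of 4 higher in RS WT than in PD WT (Ube2f, Usp7, Usp15 and Usp37). It called that of 5 lower (Usp14, Usp32, Usp39, Usp40 and Usp6nl), beside 36% higher and 46.7% lower of all tested genes. The other 5 members, Usp54, Usp48 and Usp34 among them, were not called. Usp25 and Usp44, both higher in RS, moved the same way in both, with 86.8% and 89.3% cover in RS WT and 66.2% and 68.6% in PD WT.

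The gaps were long, and some neighbours lacked cover as well. The stretch without a peak in RS WT spanned the whole 69.4 kb of Usp54 and the whole 184 kb of Usp34, and 39.3 kb of Usp7, of which 98.3% was inside PD WT peaks. Of the 28 genes next to the 14 members, 11 were covered over at least 80% in PD WT, and 8 of these were covered over at least 80% in RS WT and 3 under 20%. Those 3 were Ppp3cb next to Usp54, Ahsa2 next to Usp34 and 1700102P08Rik next to Usp4. Both neighbours of Usp54, Usp48, Usp4 and Usp6nl had 0% cover in RS WT, but of these only Ppp3cb and 1700102P08Rik were covered in PD WT. The rest, Myoz1, Ldlrad2, Rap1gap, Gpx1, Echdc3 and Celf2, had 0% cover in PD WT too. Over all autosomal genes covered at least 80% in PD WT, 434 of 4733 were under 20% in RS WT, and 7 of 49 members. Input samples are listed for PD but not for RS, so the controls of the lists may differ between cell types. Whether a missing peak reflects the mark or the peak calling was not tested. Of the 14 members, Ube2f and Usp49 were lower in RS Setd2KO than in RS WT, Usp14, Usp32 and Usp6nl were higher, and the other 9 were not called. Of all tested genes, 21.8% were lower and 20.9% higher there.

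**Figure D5:**
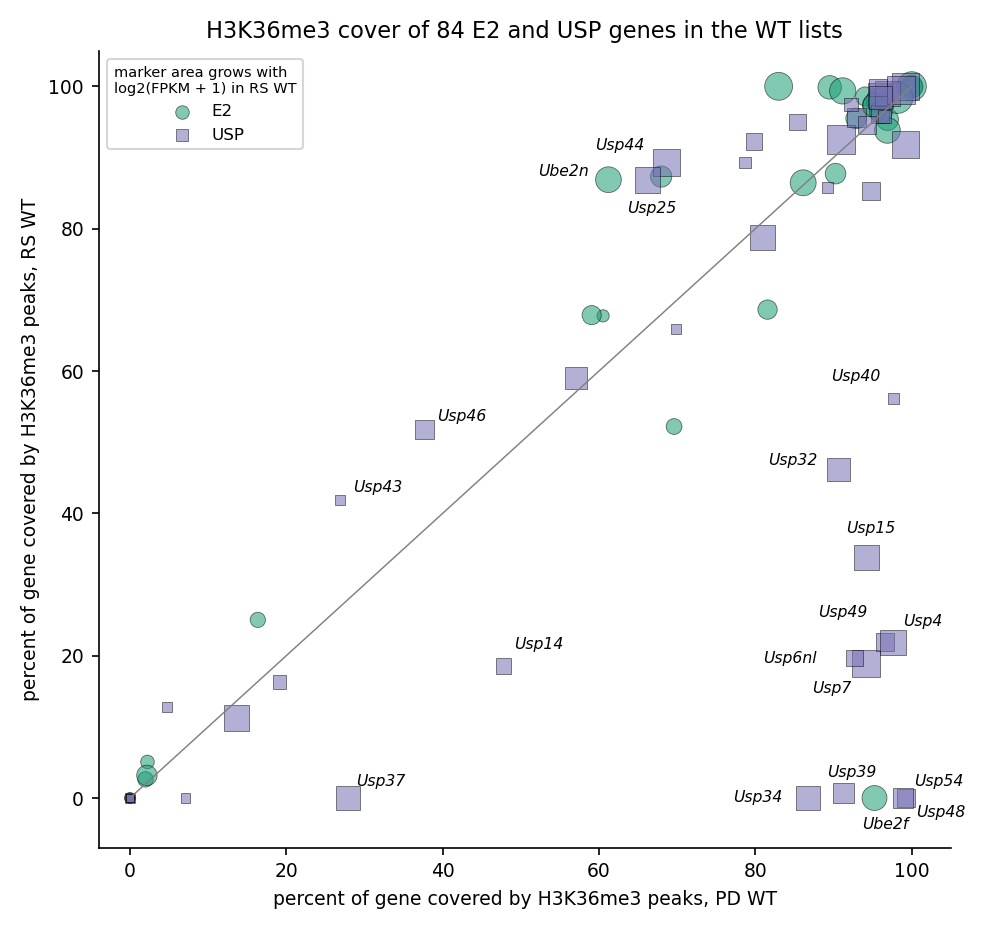
Percent of each of the 84 members covered by H3K36me3 peaks in PD WT (horizontal) and RS WT (vertical), with the line of equal cover and marker area growing with the RS WT level. Usp54, Usp48, Ube2f, Usp39 and Usp34 lie at the lower right with at most 0.679% cover in RS WT and at least 86.7% in PD WT.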

How the data were processed

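RNA-seq of 8 libraries and H3K36me3 peak lists of 4 groups were used, in mm9 coordinates. The authors deposited gene-level FPKM, and per the submitters' processing notes CASAVA, TopHat2, Cufflinks and Cuffdiff (RNA) and CASAVA, Bowtie and bedtools (ChIP) were used, with no versions. The peak lists hold the authors' peak score, of at least 50, as deposited; the peak names point to MACS. Inputs were not analysed here.

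Members and gene lists were chosen with earlier results of these data known. Genes with a group mean of at least 1 FPKM (11452) were fitted as log2(FPKM + 1) with limma 3.58.1 in R 4.3.3 (trend on the mean), 4 groups in 1 fit, with Benjamini-Hochberg adjustment over these genes and a threshold of 0.05. FPKM holds no counts, so count models were not used. Log2 changes therefore lie on the log2(FPKM + 1) scale, which understates the change of low genes. Values relative to the median subtract the median log2 change of all tested genes. Depth came from the steps of single-exon Olfr genes (whole reads within 0.003).

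To allow for RNA of the other cell type, the mean RS profile of the same genotype was subtracted from each PD library. The share came from genes specific to RS in WT (20 FPKM or more there and 20-fold lower in PD). It was read as the median percent of the RS level in the same genotype. Added after seeing the data, the PD profile was subtracted from RS libraries in the same way. Further alternatives were a pseudocount of 0.1, no filter, upper-quartile and quantile scaling, no trend, a replicate block, genes with the same interval in all tables and each library left out. Cover is the percent of a gene's interval inside peaks.

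Named genes were, per comparison and direction, up to 8 called members with the largest change, no overlap between groups and, in the higher group, a mean of 5 FPKM or more; the 5 with the highest level in each group; 16 members with known germ cell, chromatin or proteasome roles; for peaks, the 5 with the longest cover in each WT list, members of at least 5 FPKM without a peak and any member with a Setd2KO peak; and up to 3 called genes of each pathway list per comparison. Not all of the last are printed. Others named for a low level, lost cover or other small counts were chosen after their values were seen. The 6 members overlapping a gene on the other strand were Usp37, Usp34, Ube2e1, Usp16, Usp14 and Ube2d2b. The directional kit keeps strand, and how the authors' counting used it is not given in the sources used here. Some genes that were counted are not reported here by name or value.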

Additional observations from a re-analysis of the deposited data

Results flagged for a closer look

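The Setd2KO effect differed between RS and PD for 19 members by the limma test of the difference itself (effect in RS minus effect in PD, log2 scale). It was lower in RS for Usp50 (-1.50), Ube2k (-1.31), Ube2e2 (-1.30), Usp38 (-1.15), Usp25 (-1.11), Usp12 (-0.97), Ube2g2 (-0.95), Usp2 (-0.79), Ube2j1 (-0.79), Usp37 (-0.66), Usp44 (-0.65), Ube2v2 (-0.64), Ube2g1 (-0.58), Usp36 (-0.56), Usp49 (-0.52) and Usp40 (-0.46). It was higher in RS for Usp14 (0.51), Usp53 (0.58) and Ube2t (0.91). The median over all tested genes was -0.16. The share read from the 517 genes was higher in the PD Setd2KO than in the PD WT libraries, but these genes were picked as low in PD WT. The part of spermatid RNA in these values was not tested beyond the subtraction.

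Usp36 and Usp40 were flagged at low levels. Usp36 had 0.135 and 0.173 FPKM in RS Setd2KO and 0.269 and 0.263 FPKM in RS WT, and 0.979 and 1.09 FPKM in PD Setd2KO and 0.641 and 0.403 FPKM in PD WT. Usp40 was under 1 FPKM in all RS libraries, where the added 1 FPKM compresses any change, and its difference was -0.70 with the PD profile subtracted from RS.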

How the results depend on the processing

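No call of a member changed direction in any of the 17 alternatives. Calls held in all of them for 5 of 27 members in PD (Setd2KO against WT), 12 of 25 in RS, 40 of 50 for the WT step between RS and PD, 40 of 49 for the Setd2KO step, and 9 of 19 for the difference of effects. Of the 40 for the WT step, Usp2, Usp37 and Ube2j2 have intervals that differ between tables, so the setting with equal intervals does not cover them, and 37 held in all 17. Of the 40 for the Setd2KO step, Usp36 fell under the filter without the second PD Setd2KO library. Its call held in the 16 settings that tested it. For Setd2KO in PD, 25 higher and 2 lower members became 14 and 7 with upper-quartile scaling and 11 and 7 with quantile normalization, and leaving out 1 library gave 12 to 31 higher and 0 to 4 lower. For Setd2KO in RS, 15 higher became 23 with upper-quartile scaling, and leaving out 1 library gave 6 to 22 higher and 7 to 14 lower. For the difference, 3 higher became 8 with upper-quartile scaling and 11 with quantile normalization, and leaving out 1 library gave 1 to 9 higher and 9 to 23 lower. The cause was not tested. Members with an RS Setd2KO peak went to 0 at a score of at least 100 and to 0 where at least 50% of the gene had to be covered. Same-numbered libraries deviated with r of -0.309 to 0.0682, which cannot tell whether they share an animal or a day, and the labels give only the number. With the replicate block 22 members were higher and 2 lower in PD, 16 and 10 in RS, 19 and 31 for the WT step, 18 and 32 for the Setd2KO step, and 3 and 15 for the difference. Where a library is left out, the lone library of its group is assumed to vary like the other groups. With 2 libraries a group, small changes may be missed, and 1 read per kilobase was worth 0.0118 to 0.0197 FPKM.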
